A study of Mus musculus with 4 samples.

Results

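OG2 mouse embryonic stem (ES) cells kept for 12 h in fibroblast growth factor 2 with a JAK inhibitor (FJ) were set against OG2 cells kept for 12 h in fibroblast growth factor 2 with leukaemia inhibitory factor (FL), with 1 Illumina bead array a side. The genes described were all those with a detection p-value below 0.01 on at least 1 of both arrays. These were 7904 of the 16593 genes with a symbol on the array. Of them 7126 were detected on both arrays, 436 on the FJ array only and 342 on the FL array only, judged by the probe that stood for the gene. Another probe was detected on the other array for 5 of the 436 and 7 of the 342. At the edge of the rule, 54 genes had a best detection p-value of 0.00877, with a median normalized signal of 28.1 on the brighter array and a median log2 difference of 0.19 in size. Just outside it, 102 genes with a best detection p-value of 0.01003 had a median signal of 27.7 and a median difference of 0.28 in size.

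The FJ cells received 10 ng/ml FGF2 and 1 µM JAK inhibitor I for 12 h, and the FL cells received 10 ng/ml FGF2 and LIF at a dose not given in the sources used here. Before the switch KSR medium and gelatin-coated dishes were used for all cells. That medium held 1000 U/ml LIF, the MEK inhibitor PD0325901 (1 µM), which keeps ERK inactive, and the GSK3 inhibitor CHIR99021 (3 µM). Neither of these kinase inhibitors is named for the FJ or FL medium, so as far as the labels say both arms also left them behind at the switch. OG2 cells carry a green fluorescent protein reporter of Pou5f1, and all arrays came from this 1 line. The other 2 of the 4 arrays of the study, used here for comparison, came from cells switched to PD0325901 with JAK inhibitor I (PJ) or PD0325901 with LIF (PL). LIF is not named for the FJ medium, so loss of LIF and block of JAK cannot be told apart. No separate cultures are named, and with 1 array a side the differences between conditions have no test. Values are background-corrected, quantile-normalized signals in arbitrary units of intensity, and differences are log2 FJ minus FL. The error after ± is the combined bead standard error, which covers the spread over the beads of 1 probe on each array and not the spread between cultures.

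LIF binds the LIF receptor and its partner Il6st, and the JAK kinases bound to them phosphorylate the transcription factor STAT3. STAT3 then enters the nucleus and drives genes that keep mouse ES cells undifferentiated, such as Klf4, together with Socs3, a feedback inhibitor that shuts the receptor complex down. FGF2 acts through FGF receptors and ERK, which pushes ES cells out of the naive state and toward a formative epiblast state marked by Otx2 and Pou3f1.

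The arrays were alike in quality. Between 10626 and 10927 of 25697 probes were detected on each of the 4 arrays, and the median bead standard error of detected probes lay between 4.07% and 4.52% of the signal. All 10 ES cell markers checked were detected in FJ and in FL cells, with summed signals of 41727 in FJ cells and 43164 in FL cells. Of 12 fibroblast and feeder markers 6 were detected on each array, with a summed signal of 2364 in FJ cells and 2532 in FL cells, most of it from Acta2 (1901 in FJ against 2073 in FL cells). Col1a2, Col3a1, Lum, Postn, S100a4 and Pdgfrb were not detected on either. Primitive endoderm markers summed to 238 in FJ cells and 248 in FL cells with 3 of 6 detected, trophectoderm markers to 178 in FJ cells and 202 in FL cells with 2 and 3 of 6 detected, and neuroectoderm markers to 151 in FJ cells and 146 in FL cells with 1 of 5 detected. The marker sums include undetected markers at background signals. Nes, the 1 detected neuroectoderm marker, had 70.1 in FJ and 66.8 in FL cells. The part of these cell types in the differences was not tested. The PL array, used only beside PD0325901, stood apart in some stromal and inflammatory genes. Dcn had a signal of 466 on it, against 87.5 to 104 on the other 3 arrays, Lum 91.3 against 23.6 to 40.9, and the acute phase gene Saa3 595 against 113 to 148. In such bulk samples, fewer cells of a type and less RNA per cell cannot be told apart.

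Past 2-fold, more genes were lower than higher in FJ cells. Of the 7904 genes, 34 were at least 2-fold lower in FJ than in FL cells (0.43%) and 6 were at least 2-fold higher (0.0759%), which makes 0.506% either way. The split was 10 higher and 25 lower with median scaling in place of quantile normalization, and 16 higher and 20 lower with no normalization between arrays. The median log2 difference of all genes was 0.01 in the values reported here, 0.13 with median scaling and 0.20 with no normalization. The middle of the distribution was narrow: the 5th and 95th percentiles were −0.48 and 0.44, and the 1st and 99th −0.81 and 0.65. Among the 7126 genes detected on both arrays, the standard deviation of the difference across genes was 0.29 for the 1782 dimmest and 0.19 for the 1782 brightest. Each of the 40 genes past 2-fold differed in measured values by 5.46 to 36.0 times its bead standard error. These genes were chosen by the size of their difference, so high ratios follow from the choice and are no support for it. The size of 2 of the 6 higher and 3 of the 34 lower genes is a lower bound, because they were detected on 1 array only and were set against the detection limit of the other, at a normalized signal of 27.8 on the FJ and 28.6 on the FL array. Just inside the threshold lay Tgm2 at −1.01 and Chac1 at 1.04. Another 10 genes detected on both arrays were lower by 1.9-fold to just under 2-fold, and 0 were higher by as much.

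**Figure D1:**
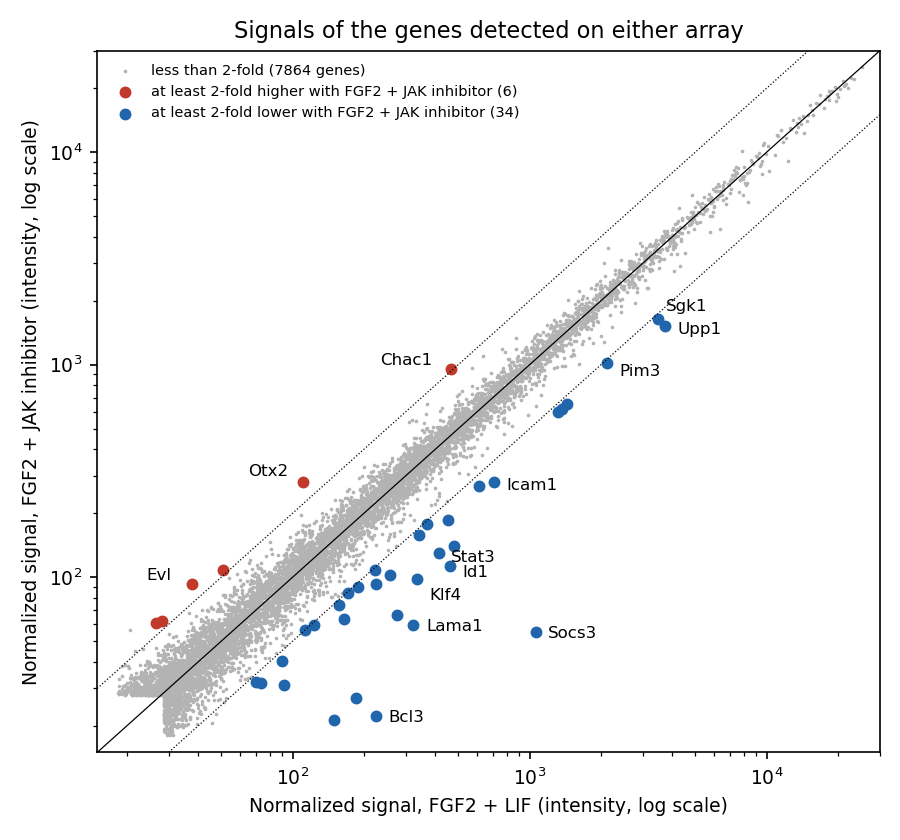
Normalized signal of each of the 7904 genes in FGF2 with JAK inhibitor (y axis, log scale) against FGF2 with LIF (x axis, log scale), with 1 point a gene. Blue points are the 34 genes at least 2-fold lower and red points the 6 at least 2-fold higher in FJ cells. Socs3 lies farthest below the diagonal, at 55.2 in FJ against 1062 in FL cells.

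The feedback inhibitor Socs3 differed more than any other gene detected on both arrays. Its normalized signal (probe ILMN_2618176) was 55.2 in FJ cells, against 1062 in FL cells, a log2 difference of −4.27 ± 0.12, or 19.2-fold lower. Stat3, the factor that Socs3 restrains and that drives its own gene, had a signal of 129.7 in FJ cells, against 414 in FL cells, a log2 difference of −1.68 ± 0.14 (probe ILMN_2698046). Other detected Stat3 probes gave −1.57 and −1.18. Socs3 and Stat3 were thus lower in FJ cells together, although Socs3 was lower by far more.

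The receptor and kinase genes Lifr, Il6st and Jak2 upstream of STAT3 were close to level. Their signals lay not far above the detection limit (27.8 on the FJ and 28.6 on the FL array), where differences carry the largest errors. Lifr, the LIF receptor chain, had a signal of 37.0 in FJ cells, against 33.7 in FL cells (0.13 ± 0.18), and its partner Il6st 36.8 in FJ against 39.7 in FL cells (−0.11 ± 0.24). Jak2 had 49.7 in FJ against 50.3 in FL cells (−0.017 ± 0.22). The sign of these 3 differences was not kept under every processing tried, and a second Lifr probe, detected in FL cells only, gave −0.40 in measured values. Jak3, a kinase best known from lymphocyte cytokine receptors, had 109 in FJ against 183 in FL cells (−0.75 ± 0.14), and Stat6, which acts downstream of interleukin 4, had 32.0 in FJ against 45.9 in FL cells (−0.52 ± 0.23). Jak1 was not detected on either array. Of 15 detected genes of the receptor and JAK-STAT list, 1 was at least 2-fold lower and 0 were higher, against 0.43% and 0.0759% of all genes. The list median was −0.080 beside 0.01 over all genes.

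Feedback inhibitors other than Socs3 differed less. Cish, a cytokine-induced SOCS family member, had a signal of 54.8 in FJ cells, against 98.2 in FL cells, a log2 difference of −0.84 ± 0.12. Socs2 had 1153 in FJ against 1275 in FL cells (−0.14 ± 0.068), with a sign that was not kept under every processing tried, and Pias4, a ligase that attaches SUMO to its targets, had 599 in FJ against 779 in FL cells (−0.38 ± 0.10). Among 12 detected SOCS, PIAS and phosphatase genes, Socs3 was the 1 gene at least 2-fold lower, against 0.43% of all genes. Socs3 and Cish were the 2 at least 1.5-fold lower, against 2.18% of all genes. The list median was −0.14.

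The LIF and STAT3 response list held the most lower genes of the 29 lists examined. The lists were written with earlier results of these data known, so their counts are descriptions and no independent support. Of 30 listed genes 26 were on the array, and 23 were detected, 19 on both arrays and 4 in FL cells only. Of these 23 genes 10 were at least 2-fold lower and 0 higher, 15 were at least 1.5-fold lower and 0 higher, and 20 lay below 0. Of all genes 0.43% were lower at 2-fold and 2.18% at 1.5-fold, and 52.0% lay above 0. The list median was −0.95, or −0.84 with the genes detected in FL cells only taken at their bound. By the probes that stood for them, all 9 reference genes detected lay within 1.5-fold, with a median of −0.069. Another detected probe of the reference gene Actb gave −1.004.

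Transcription factors of that list were lower in FJ cells by differing amounts. Bcl3, a nuclear partner of NF-kappaB subunits, was not detected in FJ cells and had a signal of 22.4 in FJ cells, against 224 in FL cells, at least 8.06-fold lower. Klf4 (probe ILMN_2999439) had 98.1 in FJ cells, against 334 in FL cells, a log2 difference of −1.77 ± 0.11, with −1.89 and −1.75 from other detected probes. Junb, an AP-1 subunit, had 93.3 in FJ cells, against 225 in FL cells, a log2 difference of −1.27 ± 0.14. These 3 genes passed 2-fold, whereas Gbx2, a homeobox factor induced by LIF, had 1279.8 in FJ against 2055 in FL cells (−0.68 ± 0.078) and Klf5 2905 in FJ against 4305 in FL cells (−0.57 ± 0.072). Fos, another AP-1 subunit, was detected in FL cells only and was at least 1.64-fold lower in FJ cells (20.6 in FJ against 45.7 in FL cells), and the repressor Bcl6 was at least 1.52-fold lower (24.5 in FJ against 42.2 in FL cells).

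Not all listed response genes were lower. Myc, which LIF maintains in ES cells, had a signal of 48.8 in FJ cells, against 39.2 in FL cells, a log2 difference of 0.32 ± 0.20. Cebpb, a factor of the acute phase response, had 617 in FJ against 483 in FL cells (0.35 ± 0.086). Ccn1, a secreted matrix protein, was the third gene above 0, at 0.26, but its other detected probes gave −0.33 and −0.26, so its sign depended on the probe. Mcl1, an anti-apoptotic Bcl2 family member, stood at −0.063.

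Kinases, adhesion and inflammatory signalling genes made up the rest of the response list. Pim3, a serine/threonine kinase, had a signal of 1015 in FJ cells, against 2123 in FL cells, a log2 difference of −1.06 ± 0.091. Sgk1, a kinase induced by serum and glucocorticoids, had 1636 in FJ against 3476 in FL cells (−1.09 ± 0.070). Icam1, an adhesion molecule of the immunoglobulin family, had 280.4 in FJ cells, against 709 in FL cells, a log2 difference of −1.34 ± 0.10. All 3 were bright genes, so their differences rest on signals far above the detection limit. Irak3, which dampens Toll-like receptor signalling, had 59.8 in FJ against 123 in FL cells (−1.04 ± 0.19), and Tgm2, a protein-crosslinking transglutaminase, 56.4 in FJ against 113 in FL cells (−1.01 ± 0.15). Zfp36, which destabilizes AU-rich mRNAs, had 84.1 in FJ against 162 in FL cells (−0.95 ± 0.15), short of 2-fold. Of 10 detected NF-kappaB and acute phase genes, 3 were at least 2-fold lower, against 0.43% of all genes, and these were Bcl3, Icam1 and Irak3, which the response list also holds.

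Promoters of genes at least 2-fold lower are shown where they hold the palindrome TTCNNNGAA that STAT dimers bind. The search covered the 250 bases before each annotated start in RefSeq (GRCm38.p6). The palindrome reads the same on both strands. It was found in 2197 of 27025 promoters (8.13%), in 463 of the 6479 genes described here with a promoter (7.15%), in 5 of 22 such genes at least 2-fold lower (22.7%) and in 3 of 6 at least 2-fold higher. A match is a description of the sequence and not a measured binding site. For these 5 lower genes, a window of 60 bases with the palindrome in capitals reads as follows, 5′ to 3′ toward the gene.

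Socs3, chr11:117969487-117969546, minus strand: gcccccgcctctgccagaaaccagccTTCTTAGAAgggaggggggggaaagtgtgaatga
Icam1, chr9:21015872-21015931, plus strand: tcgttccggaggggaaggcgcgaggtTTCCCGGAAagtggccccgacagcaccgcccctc
Sgk1, chr10:21881935-21881994, plus strand: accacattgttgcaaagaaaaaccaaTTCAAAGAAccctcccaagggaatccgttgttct
Urah, chr7:140835030-140835089, plus strand: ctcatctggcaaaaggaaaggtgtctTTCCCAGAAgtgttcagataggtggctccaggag
Tgm1, chr14:55713632-55713691, minus strand: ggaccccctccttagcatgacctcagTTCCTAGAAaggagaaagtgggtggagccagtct

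The first base of the palindrome lay 154 bases before the annotated start in Socs3, 42 bases in Icam1 and 223 bases in Sgk1. In Urah it lay 82 or 223 bases before its annotated starts, and in Tgm1 the first of its matches lay 173 bases before the start. Socs3, Icam1 and Sgk1 are response list members, and Urah and Tgm1 are not. Of 20 response list members with a promoter 5 held the palindrome (25%), among them Bcl6 and Zfp36, which are not shown. Of the amino acid response and serine synthesis list described below, 4 of 22 held it (18.2%). The higher genes with the palindrome were Otx2, Slc46a3 and Tsc22d3.

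**Figure D2:**
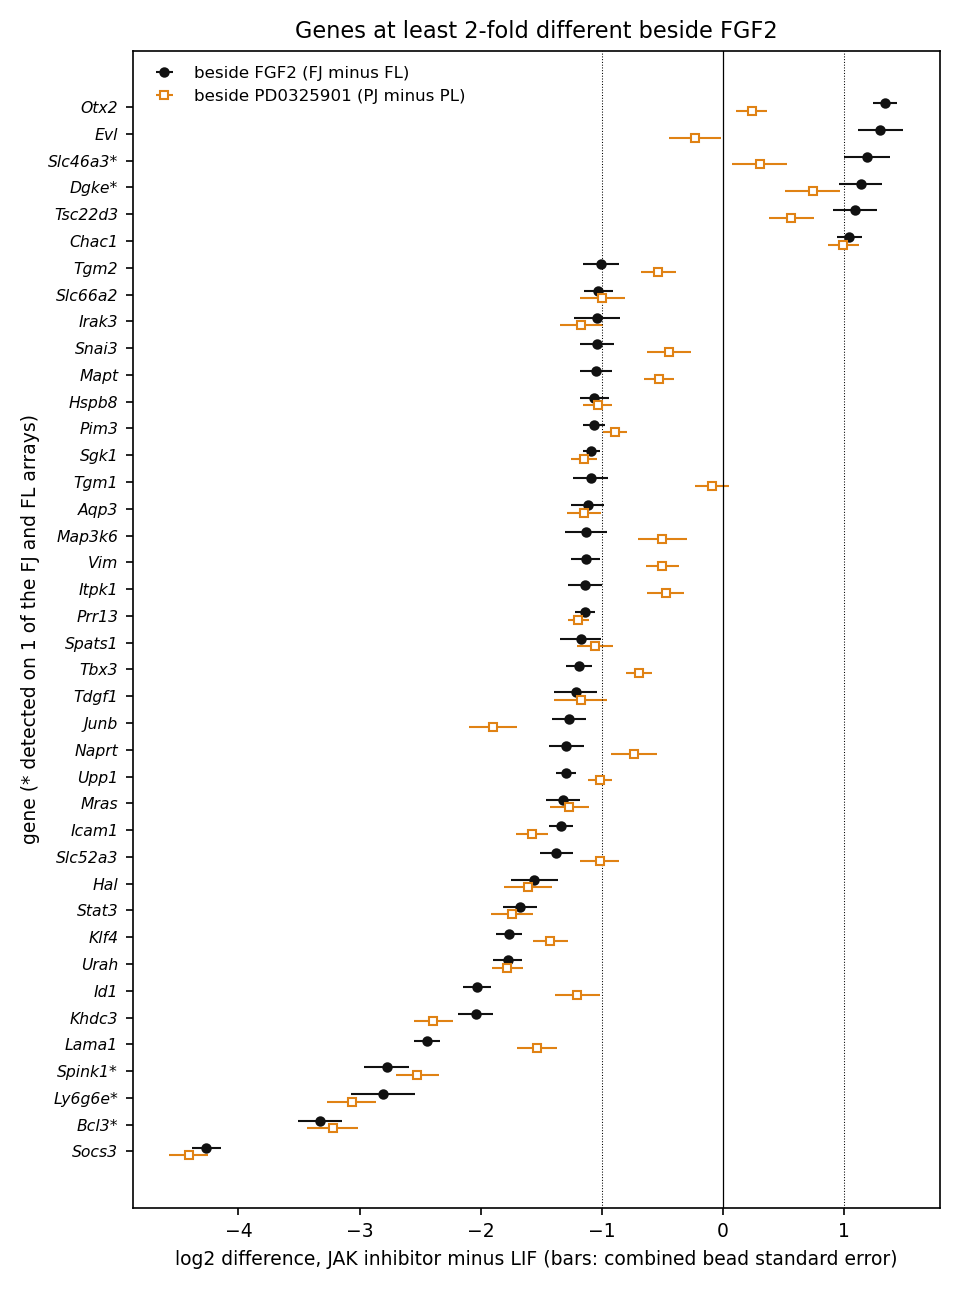
Log2 difference of JAK inhibitor minus LIF for the 40 genes at least 2-fold different beside FGF2 (filled circles, FJ minus FL), with the difference of the same genes beside PD0325901 (open squares, PJ minus PL). Bars are combined bead standard errors and dotted lines mark 2-fold. All 34 lower genes also lie below 0 beside PD0325901, from −4.41 for Socs3 to −0.09 for Tgm1, whereas Otx2 and Evl lie at 0.24 and −0.23 there.

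Naive pluripotency factors were lower in FJ cells in some cases and level in others. Tbx3, a T-box factor that sustains self-renewal downstream of LIF, had a signal of 269 in FJ cells, against 614 in FL cells, a log2 difference of −1.19 ± 0.10, with −0.86 and −0.81 from other detected probes. Klf2 had 1264 in FJ against 1855 in FL cells (−0.55 ± 0.067), Esrrb, an orphan nuclear receptor, 4210.1 in FJ against 5766 in FL cells (−0.45 ± 0.053) and Nanog 1292 in FJ against 1675 in FL cells (−0.37 ± 0.068). These 3 stayed within 1.5-fold. Zfp42 (Rex1) had 2401 in FJ against 2334 in FL cells (0.041 ± 0.12) and Dppa5a 21532 in FJ against 20913 in FL cells (0.042 ± 0.050). Fbxo15 had 1504 in FJ against 2221 in FL cells (−0.56 ± 0.054), while the adhesion molecule Pecam1 had 352 in FJ against 262 in FL cells (0.42 ± 0.13), with −0.079 from its other probe. Of 17 detected naive genes 2 were at least 2-fold lower (Klf4 and Tbx3), 3 at least 1.5-fold lower and 0 higher by as much, against 0.43% of all genes lower at 2-fold and 2.18% at 1.5-fold. The list median was −0.37. Tfcp2l1 was not analysed here.

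General pluripotency genes were nearly level, with a median of 0.015 over 12 genes. Pou5f1 had a signal of 6226 in FJ cells, against 6316 in FL cells (−0.021 ± 0.11) and Sox2 619 in FJ against 550.1 in FL cells (0.17 ± 0.13). The exception was Tdgf1, the cell surface co-receptor of Nodal, with 31.7 in FJ against 73.6 in FL cells (−1.21 ± 0.18). The sign of the Pou5f1 difference was not kept under every processing tried. The OG2 reporter gene was not analysed here.

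Among formative and primed epiblast genes detected on both arrays, Otx2 had the largest difference. This homeobox factor of the formative state (probe ILMN_2691752) had a signal of 279.8 in FJ cells, against 110.5 in FL cells, a log2 difference of 1.34 ± 0.10, or 2.53-fold higher. Pou3f1 had 201 in FJ against 134 in FL cells (0.59 ± 0.14) and Zic2 94.0 in FJ against 68.4 in FL cells (0.46 ± 0.23). Sall2, a zinc finger factor detected in FJ cells only, was at least 1.98-fold higher (56.5 in FJ against 20.7 in FL cells). On the other side Cldn6, a tight junction protein, had 162 in FJ against 268 in FL cells (−0.73 ± 0.14), and the methyltransferase Dnmt3b had 4233 in FJ against 4289.6 in FL cells (−0.019 ± 0.050), with a sign not kept under every processing tried. Of 18 listed genes 10 were detected, 6 on both arrays. Of the 10, 1 was at least 2-fold higher and 0 lower, against 0.0759% and 0.43% of all genes. At 1.5-fold 3 were higher and 1 lower, against 1.21% and 2.18% of all genes. The list median was 0.35, or 0.20 with genes detected on 1 array at their bound. Fgf5, a marker of the primed epiblast, was not detected in FJ or FL cells.

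ERK feedback genes, read-outs of the FGF2 both arms received, had a median of −0.077, with 14 of 20 detected genes below 0 and 6 above, where 52.0% of all genes lay above. Dusp6, an ERK phosphatase, had a signal of 2124 in FJ cells, against 2069.6 in FL cells (0.037 ± 0.059), with 0.47 and −0.27 from its other detected probes, and Egr1, an immediate early factor, 429 in FJ against 389 in FL cells (0.14 ± 0.088). Dusp4, another MAP kinase phosphatase, was higher at 544 in FJ against 331 in FL cells (0.72 ± 0.084), and Spry4, an inhibitor of receptor tyrosine kinase signalling, was lower at 140.2 in FJ against 205 in FL cells (−0.55 ± 0.15). Of 20 detected genes 1 was at least 1.5-fold higher (Dusp4) and 2 lower (Junb and Fos), against 1.21% and 2.18% of all genes. Etv4 and Etv5, ETS factors downstream of FGF, stood at −0.16 and −0.011.

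Among basement membrane genes, 1 stood past 2-fold. Lama1, the alpha chain of the laminin of early basement membranes, had a signal of 59.6 in FJ cells, against 324 in FL cells, a log2 difference of −2.44 ± 0.11, or 5.43-fold lower. Its partner chain Lamc1 had 751 in FJ against 924 in FL cells (−0.30 ± 0.081) and Itga6, an integrin subunit that binds laminin, 70.8 in FJ against 107 in FL cells (−0.59 ± 0.13). Of 13 detected basement membrane genes 1 was at least 2-fold lower and 0 higher, against 0.43% and 0.0759% of all genes, with a median of −0.096. The other laminin and collagen genes detected lay between −0.30 and 0.24.

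Of the BMP genes, Id1, a helix-loop-helix inhibitor of differentiation factors, had a signal of 113 in FJ cells, against 462 in FL cells, a log2 difference of −2.03 ± 0.11, or 4.09-fold lower. Its relative Id3 had 43.5 in FJ against 38.0 in FL cells (0.19 ± 0.23), within its bead error. Bmp4, a ligand that induces Id genes, had 376 in FJ against 628 in FL cells (−0.74 ± 0.11). Over 9 detected genes the median was 0.12, or 0.024 with the gene detected on 1 array at its bound. Id1 and Bmp4 were at least 1.5-fold lower and 0 genes higher by as much, against 2.18% and 1.21% of all genes. Of the Nodal and activin genes, Inhbb, a subunit of activin B, had 81.2 in FJ against 146 in FL cells (−0.84 ± 0.15), while Lefty1, a Nodal inhibitor, had 176 in FJ against 118 in FL cells (0.57 ± 0.11). Tdgf1 and Inhbb were the 2 of 12 genes at least 1.5-fold lower and 0 were higher, against 2.18% and 1.21% of all genes, and the median was 0.14.

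Several genes at least 2-fold lower encode enzymes and transporters of small molecules, a grouping made after their values were seen. Upp1, the uridine phosphorylase, had a signal of 1522 in FJ cells, against 3728 in FL cells, a log2 difference of −1.29 ± 0.083, with −1.06 and −1.30 from other detected probes. Urah, a hydrolase of urate breakdown, had 140.5 in FJ cells, against 481 in FL cells, a log2 difference of −1.77 ± 0.12. Hal, the histidine ammonia-lyase, had 31.3 in FJ against 92.2 in FL cells (−1.56 ± 0.19). Naprt, which makes NAD precursors from nicotinate, had 186 in FJ against 455 in FL cells (−1.29 ± 0.14), with −1.27 and −0.42 from other probes, so its size depended on the probe. Slc52a3, a riboflavin transporter, had 63.4 in FJ against 165 in FL cells (−1.38 ± 0.14), Aqp3, a water and glycerol channel, 157 in FJ against 341 in FL cells (−1.11 ± 0.14), and Itpk1, an inositol phosphate kinase, 620.2 in FJ against 1365 in FL cells (−1.14 ± 0.14).

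Further genes past 2-fold belonged to no common group. Khdc3, a component of the maternal complex of oocytes and early embryos that ES cells also express, had a signal of 66.8 in FJ cells, against 275 in FL cells, a log2 difference of −2.04 ± 0.15. Spink1, a secreted trypsin inhibitor, was not detected in FJ cells and had 26.9 in FJ against 184 in FL cells, at least 6.62-fold lower. Ly6g6e, of the Ly6 family, was likewise detected in FL cells only, with 21.4 in FJ against 149.9 in FL cells, at least 5.38-fold lower. Mras, a small GTPase of the Ras family, had 103 in FJ against 257 in FL cells (−1.32 ± 0.14), and Map3k6, a kinase upstream of MAP kinases, 32.0 in FJ against 70.1 in FL cells (−1.13 ± 0.18).

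Vim, the intermediate filament protein vimentin, had a signal of 601 in FJ cells, against 1319 in FL cells (−1.13 ± 0.12), and Mapt, the microtubule-binding protein tau, 178 in FJ against 369 in FL cells (−1.05 ± 0.13). Another Mapt probe gave −0.39 beside FGF2 and 0.19 beside PD0325901, so its size depended on the probe. Snai3, of the Snail repressor family, had 108 in FJ against 222 in FL cells (−1.04 ± 0.14). Tgm1, a transglutaminase of stratified epithelia, had 73.9 in FJ against 158 in FL cells (−1.09 ± 0.14), and Hspb8, a small heat shock protein, 90.5 in FJ against 189 in FL cells (−1.06 ± 0.12). All 34 lower genes had FL signals between 70.1 and 3728, above the detection limit. The last 3, Prr13, Spats1 and Slc66a2, stood at −1.14, −1.17 and −1.03. Short of 2-fold and detected in FL cells only were Rhbdf2, a regulator of the protease ADAM17, at least 1.88-fold lower (27.0 in FJ against 52.3 in FL cells), Tnip2, an inhibitor of NF-kappaB signalling, at least 1.78-fold (26.7 in FJ against 49.5 in FL cells), and the kinase Pim1, at least 1.15-fold (27.0 in FJ against 32.1 in FL cells). A second Tnip2 probe gave −0.24 in measured values. The matrix metalloproteinase Mmp3 had 25.9 in FJ against 51.5 in FL cells on a probe detected in FL cells only, and −0.39 on a probe detected on both arrays (28.4 in FJ against 37.1 in FL cells).

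**Figure D3:**
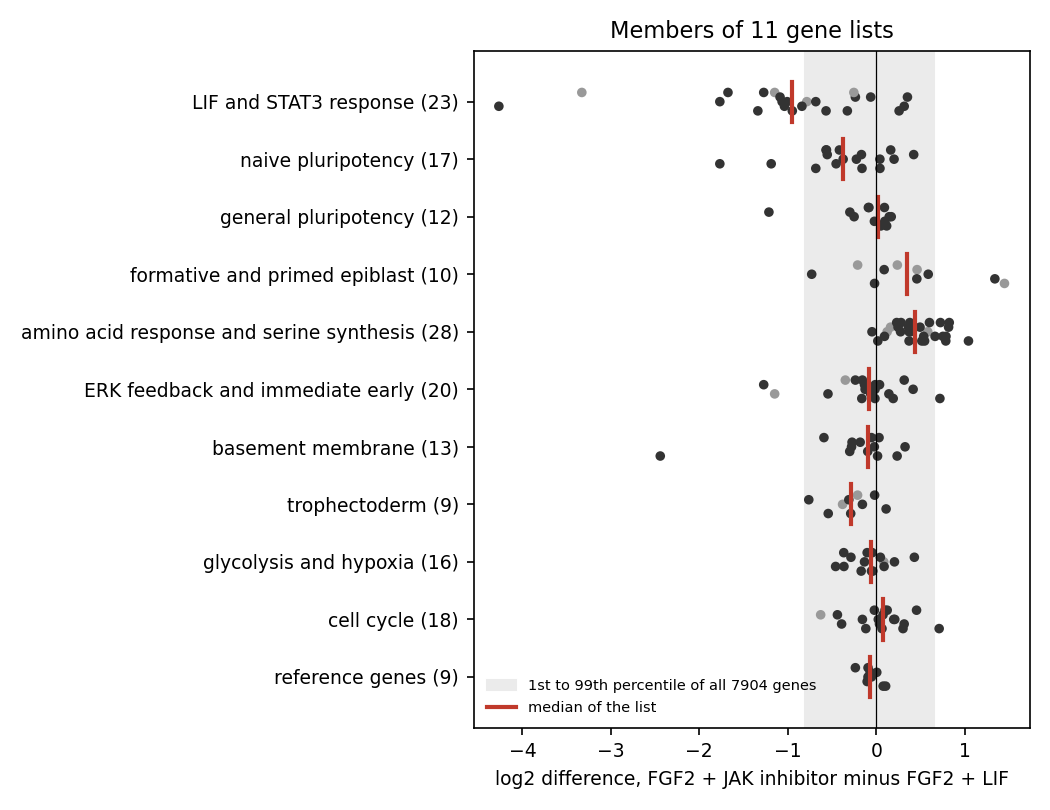
Log2 difference of FGF2 with JAK inhibitor minus FGF2 with LIF (x axis) for the detected genes of 11 lists (rows), with 1 point a gene, grey where it was detected on 1 array only. Red bars mark list medians and the band spans the 1st to 99th percentile of all genes. The LIF and STAT3 response list has its median at −0.95, left of the band, and the amino acid list at 0.44.

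Genes of the amino acid response and of serine synthesis were higher in FJ cells as a group. This programme is run by the transcription factor ATF4, which is translated when amino acids run short or proteins misfold, and it supplies serine, glycine and one-carbon units. Of 32 listed genes 28 were detected, 25 on both arrays, and 27 of the 28 lay above 0, where 52.0% of all genes did. At 1.5-fold 9 were higher and 0 lower, against 1.21% and 2.18% of all genes, and at 2-fold 1 was higher, against 0.0759%. The list median was 0.44, or 0.41 with bounds, and between 0.36 and 0.65 under the alternatives tried. This list too was written with earlier results of these data known, so these values describe the programme and do not test it.

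The regulators of the programme stood as follows. Atf4 itself had a signal of 968 in FJ cells, against 574 in FL cells, a log2 difference of 0.75 ± 0.078. Ddit3 (CHOP), a factor downstream of ATF4, had 155 in FJ against 97.6 in FL cells (0.66 ± 0.14), and Trib3, a pseudokinase that restrains ATF4, 166 in FJ against 109 in FL cells (0.60 ± 0.15). Chac1, which degrades glutathione (probe ILMN_2617468), had 957 in FJ cells, against 465 in FL cells, a log2 difference of 1.04 ± 0.10 and was the member past 2-fold. Nupr1, a small stress-induced nuclear protein, had 651 in FJ against 369 in FL cells (0.82 ± 0.10).

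The enzymes followed the same direction. Phgdh, which starts serine synthesis, had a signal of 537 in FJ cells, against 311 in FL cells, a log2 difference of 0.79 ± 0.13. Psat1, the next enzyme of the pathway, had 3542 in FJ against 2142 in FL cells (0.73 ± 0.075), and Mthfd2, of mitochondrial one-carbon metabolism, 549 in FJ against 318 in FL cells (0.79 ± 0.10). Shmt2, which passes the carbon of serine to folate, had 494 in FJ against 351 in FL cells (0.49 ± 0.082), short of 1.5-fold, while its other detected probe gave 0.81. Among transporters, Slc6a9, which imports glycine, had 104 in FJ against 58.5 in FL cells (0.83 ± 0.15). Slc38a2, a neutral amino acid transporter not on the list, had 1096 in FJ against 637 in FL cells (0.78 ± 0.10), with 0.17 from its other detected probe. For the aminoacyl-tRNA synthetase genes detected on both arrays, the probes that stood for them ranged from 0.018 for Wars to 0.37 for Gars. Other detected probes gave −0.14 for Wars and 0.73 for Sars (127 in FJ against 76.8 in FL cells). Asns, the asparagine synthetase, had 6282 in FJ against 4857 in FL cells (0.37 ± 0.059), and Slc7a1, a cationic amino acid transporter at −0.048, was the 1 member below 0.

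**Figure D4:**
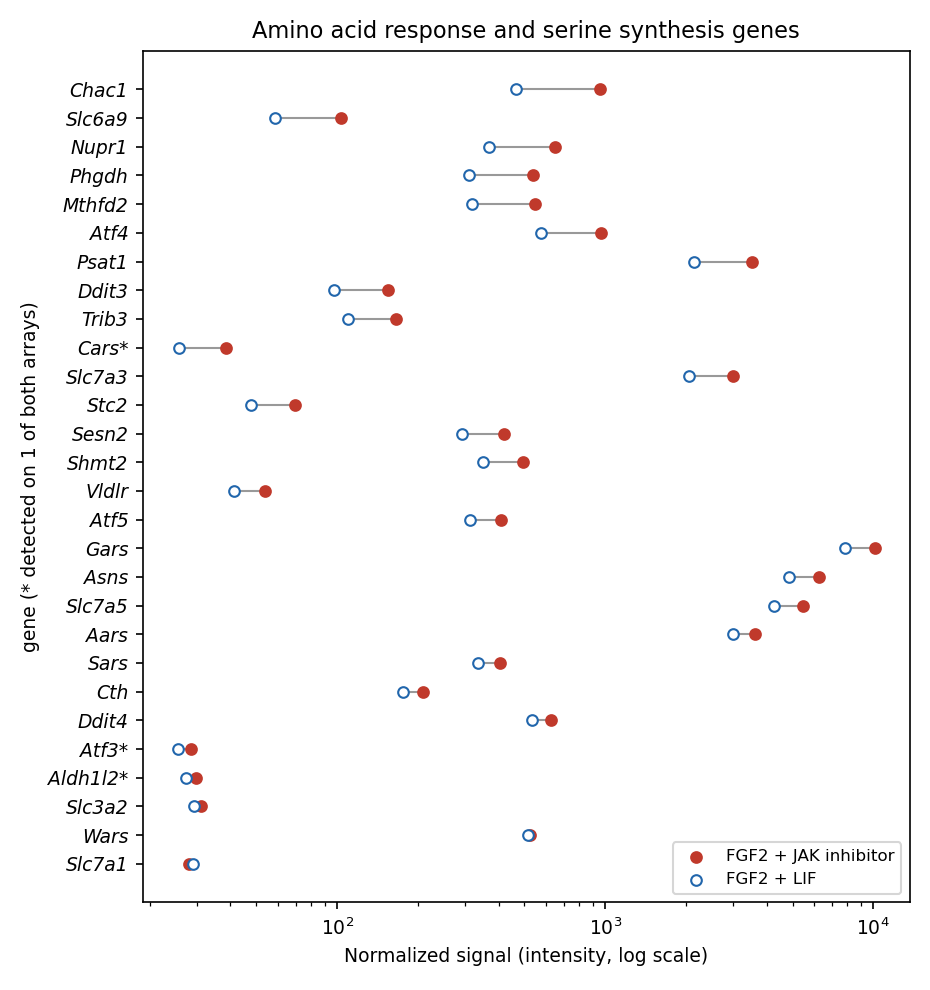
Normalized signal (x axis, log scale) of the 28 detected genes of the amino acid response and serine synthesis list in FGF2 with JAK inhibitor (filled red) and FGF2 with LIF (open blue), with 1 array each. The FJ signal lies right of the FL signal for 27 of the 28 genes, with Chac1 at 957 in FJ against 465 in FL cells.

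Promoters of this group are shown for the element TGATGNAA, bound by ATF4 together with C/EBP factors, which was searched on both strands (TTNCATCA on the other). It was found in 1056 of 27025 promoters (3.91%), in 2.53% of the genes described here with a promoter, and in 7 of 22 such genes of the amino acid list (31.8%). Aars, Atf3 and Vldlr are among these 7 genes but are not shown. The element stands in capitals in the windows below, and again a match is only a description.

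Chac1, chr2:119351023-119351082, plus strand: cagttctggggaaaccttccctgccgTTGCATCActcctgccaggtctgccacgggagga
Nupr1, chr7:126625547-126625606, minus strand: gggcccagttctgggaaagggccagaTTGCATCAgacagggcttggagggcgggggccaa
Asns, chr6:7693210-7693269, minus strand: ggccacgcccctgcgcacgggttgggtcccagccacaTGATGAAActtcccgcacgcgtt
Gars, chr6:55037941-55038000, plus strand: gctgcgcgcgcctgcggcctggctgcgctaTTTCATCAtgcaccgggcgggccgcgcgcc

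The element began 193 bases before the annotated start in Chac1, 110 bases in Nupr1, 23 bases in Asns and 30 bases in Gars. Of these 4 genes Chac1 differed by 2-fold and Nupr1 by over 1.5-fold, and Asns and Gars by less.

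Besides Otx2 and Chac1, 4 genes were at least 2-fold higher in FJ cells. Evl, an actin regulator of the Ena/VASP family, had a signal of 93.1 in FJ cells, against 37.8 in FL cells, a log2 difference of 1.30 ± 0.19. Tsc22d3 (GILZ), a leucine zipper protein induced by glucocorticoids, had 109 in FJ against 51.1 in FL cells (1.09 ± 0.18). Slc46a3, a lysosomal transporter, was detected in FJ cells only and was at least 2.12-fold higher (60.7 in FJ against 26.6 in FL cells), and so was Dgke, a diacylglycerol kinase, at least 2.17-fold (62.1 in FJ against 28.2 in FL cells). All 4 had FJ signals of 109 or less, closer to the detection limit than that of Chac1.

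Next in size came genes short of 2-fold. Mef2b, a MADS-box factor, stood at 0.89, Zfyve1, an endoplasmic reticulum protein with a FYVE domain, at 0.87, H2-Bl, a class I histocompatibility gene, at 0.87 and Slc40a1, the iron exporter ferroportin, at 0.86. Spns1, Rfx7, Dcp1b, Rida, Fam169b and Reck lay between 0.74 and 0.84. A second Dcp1b probe, detected in FJ cells only, gave 0.52 in measured values. For Rida other detected probes gave −0.13 and −0.07, so its difference rests on 1 probe. Detected in FJ cells only were also Ghr, the growth hormone receptor, at least 1.63-fold higher (46.6 in FJ against 26.7 in FL cells), and the kinase Cdk14, at least 1.62-fold (46.2 in FJ against 23.3 in FL cells). Ccnd2, the cyclin D2 gene, had a signal of 48.7 in FJ cells, against 29.7 in FL cells (0.71 ± 0.15). It was the 1 of 18 detected cell cycle genes at least 1.5-fold higher, against 1.21% of all genes, with 0 lower and a median of 0.071.

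Genes of other lineages were often undetected, and no gene of these lists was at least 1.5-fold higher. Of all genes 1.21% were higher and 2.18% lower by as much. Gata6, a factor of primitive endoderm, had a signal of 59.5 in FJ cells, against 93.6 in FL cells (−0.65 ± 0.14), and over 6 detected primitive endoderm genes the median was −0.041, with Gata6 the 1 gene at least 1.5-fold lower. Tfap2c, a factor of trophectoderm and germ cells, had 579 in FJ against 983 in FL cells (−0.76 ± 0.080), Gata3 43.4 in FJ against 63.3 in FL cells (−0.54 ± 0.16) and Krt18, a simple epithelial keratin, 167 in FJ against 207 in FL cells (−0.31 ± 0.10). Over 9 detected trophectoderm genes the median was −0.29, or −0.21 with bounds, with 8 below 0 and 1 of them, Tfap2c, at least 1.5-fold lower. Of 9 primitive streak genes on the array 2 were detected, in FL cells only, and of 9 neuroectoderm genes 1, Nes, at 0.070. Among 7 detected genes of the 2-cell-like and germ cell list, Khdc3 was the 1 at least 1.5-fold different, and the median was 0.20.

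Few genes of the other lists differed, where 1.21% of all genes were at least 1.5-fold higher and 2.18% lower. Over 22 detected nuclear-encoded respiratory chain genes the median was 0.0096, over 16 glycolysis and hypoxia genes −0.054, over 13 Bcl2 family genes 0.015, over 9 p53 targets −0.091, over 8 heat shock genes 0.056, over 12 DNA methylation and PRC2 genes 0.079 and over 6 Wnt targets −0.12. None of these 7 lists held a gene at least 1.5-fold different in either direction, with genes detected on 1 array at their bound. Hspb8, the small heat shock protein at −1.06, was not on the heat shock list. Over 11 cholesterol synthesis genes the median was −0.10, with Nsdhl, a sterol dehydrogenase, the 1 gene at least 1.5-fold lower (−0.60), although its other detected probes gave −0.48 and 0.23. Over 11 interferon and MHC class I genes the median was −0.14 with 0 past 1.5-fold, although Ifitm3, Ly6e and Irf9 stood at −0.56, −0.55 and −0.52. The 6 detected fibroblast and feeder genes had a median of −0.084.

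The same exchange of LIF for the JAK inhibitor was also made beside PD0325901. The PJ and PL arrays are separate from FJ and FL, so the 2 differences share no array. All 34 genes at least 2-fold lower in FJ than in FL cells also lay below 0 in PJ minus PL, with a median of −1.24 beside FGF2 and −1.16 beside PD0325901. Of the 7904 genes 42 were at least 2-fold lower in PJ than in PL cells (0.531%) and 12 were higher (0.152%), and 23 genes were at least 2-fold lower in both. No gene was at least 2-fold higher in both or opposite in both. For all genes the sign was shared by 58.3%. At 1.5-fold, 145 of the 172 lower and 78 of the 96 higher genes shared it, and 65 genes were lower and 16 higher by as much in both. In PJ minus PL, 3.53% of genes were higher and 3.12% lower at 1.5-fold. Across the 6769 genes detected on all 4 arrays, Pearson's r was 0.38 and Spearman's rho 0.29, as a description across genes that share libraries and are not independent.

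Socs3, Stat3, Bcl3 and Icam1 were each at least 2-fold lower in both backgrounds. Socs3 had a signal of 45.1 in PJ cells, against 958 in PL cells, a difference of −4.41 next to −4.27 beside FGF2. Stat3 had −1.74 next to −1.68, Bcl3 26.4 in PJ against 247 in PL cells, and Icam1 −1.58 next to −1.34. Others of the 34 lower genes differed in size between the backgrounds. Lama1 had −2.44 beside FGF2 and −1.53 beside PD0325901, and Id1 had −2.03 beside FGF2 and −1.20 beside PD0325901. Tbx3 had −1.19 beside FGF2 and −0.69 beside PD0325901, and Tgm1 had −1.09 beside FGF2 and −0.090 beside PD0325901. Junb, in contrast, had −1.27 beside FGF2 and −1.90 beside PD0325901. The 34 genes were chosen by their difference beside FGF2, and with 1 array a condition these departures between backgrounds were not tested.

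Of the 6 higher genes 5 lay above 0 beside PD0325901 as well, none of them past 2-fold. Otx2 had 1.34 beside FGF2 and 0.24 beside PD0325901, where its signal was 149 in PJ and 127 in PL cells. Evl, the 1 of opposite sign, had 1.30 beside FGF2 and −0.23 beside PD0325901. Chac1 had 1.04 beside FGF2 and 0.99 beside PD0325901. The smaller differences of Slc6a9 and Pou3f1 were 0.83 beside FGF2 and 1.46 beside PD0325901 for Slc6a9, and 0.59 beside FGF2 and 1.16 beside PD0325901 for Pou3f1. Spry4 was lower beside FGF2 at −0.55 and higher beside PD0325901 at 0.48. By list, the LIF and STAT3 response had a median of −0.95 beside FGF2 and −0.66 beside PD0325901, the naive genes −0.37 beside FGF2 and −0.43 beside PD0325901. The formative genes had 0.35 beside FGF2 and 0.27 beside PD0325901, and the amino acid genes 0.44 beside FGF2 and 0.33 beside PD0325901. At 1.5-fold 9 amino acid genes were higher in each background, but not all the same ones. Of all genes 1.21% were higher by as much beside FGF2 and 3.53% beside PD0325901. Atf4 had 0.75 beside FGF2 and 0.22 beside PD0325901. In that order Nupr1 had 0.82 and 0.19, Phgdh 0.79 and 0.19, Ddit3 0.66 and −0.071, and Trib3 0.60 and 0.088. Psat1 had 0.73 and 0.76, and Mthfd2 0.79 and 0.62. The NF-kappaB and acute phase genes had −0.16 beside FGF2 and −1.10 beside PD0325901, with 3 and 6 of 10 genes at least 1.5-fold lower, against 2.18% and 3.12% of all genes. The 6 lower beside PD0325901 were Saa3, Ccl7, Cxcl1, Bcl3, Icam1 and Irak3, all highest on the PL array of the 4. Bcl3 had 247 in PL against 224 in FL cells, Icam1 807 in PL against 709 in FL cells, and Irak3 148 in PL against 123 in FL cells. The BMP and Id genes had 0.12 beside FGF2 and −0.31 beside PD0325901, and the basement membrane genes −0.096 beside FGF2 and 0.22 beside PD0325901.

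**Figure D5:**
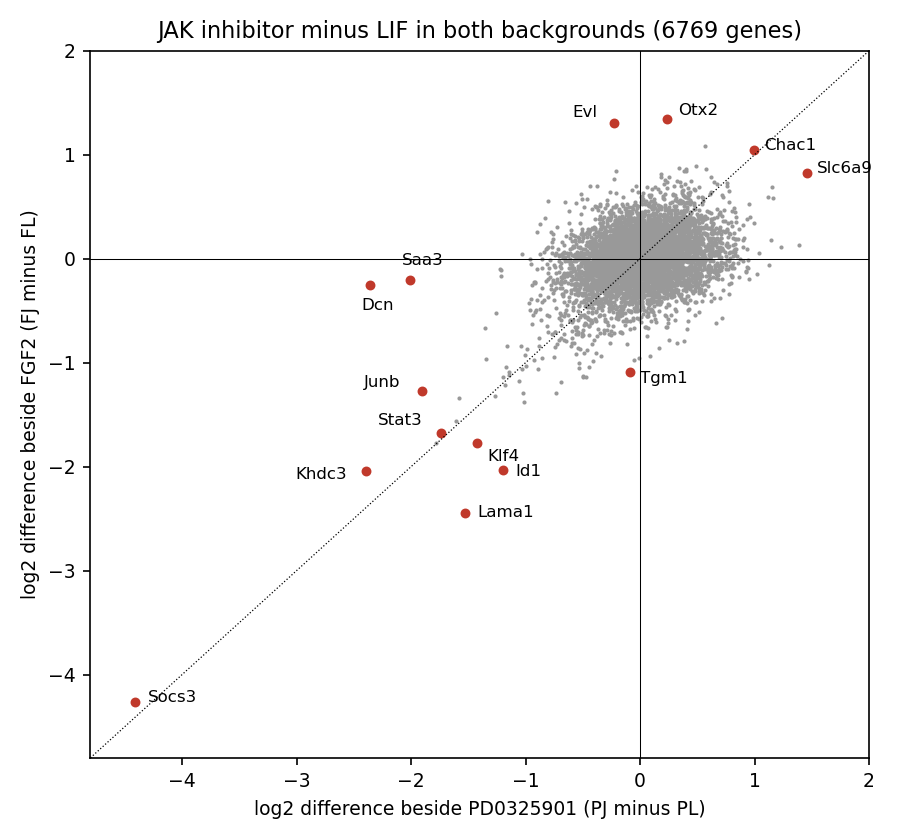
Log2 difference of JAK inhibitor minus LIF beside FGF2 (FJ minus FL, y axis) against that beside PD0325901 (PJ minus PL, x axis) for the 6769 genes detected on all 4 arrays, with named genes in red. Socs3 lies near the diagonal, with −4.27 beside FGF2 and −4.41 beside PD0325901, and Otx2 lies above it, with 1.34 beside FGF2 and 0.24 beside PD0325901.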

How the data were processed

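Total RNA (400 ng) was measured on 1 Illumina bead array for each of 4 conditions. Per the submitters' processing notes, the authors used BeadStudio; for its version, background handling and normalization nothing was stated there. The deposited columns of an array, per the file headers, were a signal and a bead standard error in units of intensity, and a detection p-value. A value table by the authors held whole-number intensity values for 13029 to 13040 of 25697 probes, with a median of 71 on each array.

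Signals were background-corrected from the detection p-values (nec in limma 3.58.1, R 4.3.3, offset 16), taken to log2 and quantile-normalized across the 4 arrays. The medians of the deposited signals differed between arrays, so the signals had not been scaled to a common median or distribution. Whether another normalization had been applied is not known. Genes were then handled in Python 3.11.15 with pandas 2.3.3 and numpy 2.4.6, and drawn with matplotlib 3.10.9. Symbols came from the platform annotation and RefSeq (GRCm38.p6): 23978 probes had 1 symbol, 0 several and 1719 none, and the Entrez IDs of 23962 were in RefSeq. No genome build of the authors was known here, so no gene coordinates are printed; promoter windows are RefSeq's. The probe of highest mean signal among those detected stood for its gene, and 2071 genes had more than 1 detected probe. A gene detected on 1 array only was given a fold of at least the detected signal over the detection limit of the other array, or over its own value there where that was higher. Beads of 1 array are no replicates, so no test was run, and genes were counted at 2-fold and 1.5-fold. The number of arrays limits the precision. The normalization was tested on simulated data in which only genes well above background were changed. That test does not cover folds of genes near the detection limit.

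Named genes were the 20 largest differences each way among genes detected on both arrays, the 6 largest bounds each way among genes detected on 1, list members at least 1.5-fold different, the 5 largest departures between backgrounds each way and a fixed set of pathway genes (104, of which 101 were among the 7904). Of the genes past 2-fold, 7 fell outside that rule and were named after their values were seen: Map3k6, Aqp3, Tgm1, Hspb8, Mapt, Snai3 and Slc66a2. List members cited for context were also named with values in view. Genes and lists were chosen with earlier results of these data known. Alternatives were the background correction, the normalization, the authors' table, the detection filter, the probe that stands for a gene and the fold threshold.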

Additional observations from a re-analysis of the deposited data

Results flagged for a closer look

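Of the genes described, 3 were at least 1.5-fold different in opposite directions beside FGF2 and beside PD0325901, with 1 array a condition, so the difference between the backgrounds was not tested. Ttyh1, a chloride channel family member, had −0.62 in FJ minus FL and 0.66 in PJ minus PL, a departure of −1.28. Thbs2, the matrix protein thrombospondin 2, had signals of 45.3 in FJ cells, against 28.4 in FL cells and 34.1 in PJ against 114 in PL cells, a departure of 2.42 in measured values. It was not detected in FL cells, so that size is uncertain, and it was highest on the PL array, on which the stromal markers Dcn and Lum were also highest. Of the other fibroblast markers detected on the PL array, Thy1 was highest there, and Col1a1 and Tagln were so by little. Acta2 was not (2879 in PL against 2918 in PJ cells), and Twist1 was lowest there (35.6 in PL cells). Rnf128, a ubiquitin ligase, had 42.9 in FJ against 27.0 in FL cells and 20.2 in PJ against 44.4 in PL cells, a departure of 1.80. It was not detected in FL or PJ cells, and it was named after its values were seen.

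Among 677 detected probes without a gene name, 2 passed 2-fold. ILMN_2879102 had a signal of 424 in FJ cells, against 949 in FL cells, a difference of −1.16, with −1.08 in PJ minus PL. ILMN_3161263 had 510.2 in FJ cells, against 1022 in FL cells, a difference of −1.002, with −1.003 in PJ minus PL.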

How the results depend on the processing

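Of the 40 genes past 2-fold, 35 kept their sign under all 10 alternatives, and 5, detected on 1 array only, under the 9 that gave them a value. Changes to the detection filter or to the probe that stands for a gene test little for any gene with 1 detected probe. Of the 40 genes, 6 had more than 1 detected probe. Of the values of single named genes, 931 stayed within their bead error and 135 moved by more, and 0 of those called changed sign. Genes at least 2-fold higher numbered 0 and lower 19 with no background correction, 1 and 22 with an offset of 50, 16 and 20 with no normalization between arrays, 47 and 122 in the authors' value table, and 96 and 172 at a threshold of 1.5-fold. Median scaling gave 10 higher genes, and put the median of all genes at 0.13, and no normalization put it at 0.20. Genes past 2-fold in 1 direction in both backgrounds numbered 11 with no background correction, 15 with an offset of 50 and 43 in the authors' table. The LIF and STAT3 response median was −0.56 with no background correction, −0.67 with an offset of 50, −0.83 with median scaling, −0.75 with no normalization, −1.08 in the authors' table and −0.81 with no detection filter. The naive median was −0.20 with no normalization and −0.21 with no detection filter. The formative median was 0.11, 0.16 and 0.49 with no background correction, an offset of 50 and no normalization, 0.60 in the authors' table, 0.24 at a detection p-value below 0.05 and 0.094 with no filter. Fewer genes pass with no background correction or a larger offset by construction, since both add a constant to each signal; the cause of the other shifts was not tested. Of the other list medians, 56 of 259 values moved. No paired analysis was possible because each condition has 1 array and the labels carry no replicate numbers, and no array could be left out.

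Signals near the detection limit, at 27.8 in FJ and 28.6 in FL cells, carry the largest errors: the median bead standard error of the log2 difference was 0.20 for the 1782 dimmest genes detected on both arrays and 0.078 for the 1782 brightest. No repeat culture shows how far cultures of 1 condition differ.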

Other observations

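The genes detected on all 4 arrays whose difference of JAK inhibitor minus LIF departed most between the backgrounds were chosen by rank. Higher beside FGF2 than beside PD0325901 were Dcn, the matrix proteoglycan decorin (−0.25 in FJ minus FL and −2.36 in PJ minus PL), Saa3, an acute phase protein (−0.20 in FJ minus FL and −2.01 in PJ minus PL), Evl (1.30 in FJ minus FL and −0.23 in PJ minus PL), Enpp4, an ectoenzyme (0.56 in FJ minus FL and −0.80 in PJ minus PL), and Cd59b, a complement inhibitor (0.39 in FJ minus FL and −0.83 in PJ minus PL). Lower beside FGF2 were Zfp598, a sensor of stalled ribosomes (−0.57 in FJ minus FL and 0.72 in PJ minus PL), Ttyh1 (−0.62 in FJ minus FL and 0.66 in PJ minus PL), Itga3, an integrin subunit (0.13 in FJ minus FL and 1.38 in PJ minus PL), Atxn2l, an RNA-binding protein (−0.057 in FJ minus FL and 1.13 in PJ minus PL), and Ramp2, a receptor partner of calcitonin-family peptides (−0.79 in FJ minus FL and 0.38 in PJ minus PL). Among these 10, Evl alone was at least 2-fold different beside FGF2. In all, 53 of 6769 genes departed by at least 2-fold, and none of these departures was tested. Dcn had 466 and Saa3 595 on the PL array, against 87.5 to 104 and 113 to 148 on the other 3. A second Dcn probe gave 0.48 in FJ minus FL in measured values. The signs of the Dcn and Atxn2l differences beside FGF2 were not kept under every processing tried.

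The 4 detected probes of Actb, used as a reference gene, disagreed. The probe that stood for the gene gave −0.24 in FJ minus FL, another −0.35, and the one detected in FL cells only −0.33 in measured values. Probe ILMN_1377923 gave −1.004 ± 0.084, with a signal of 608 in FJ cells, against 1219.9 in FL cells, and −1.06 in PJ minus PL.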
